A study of Mus musculus with 8 samples.

Results

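Guanylate-binding proteins (GBPs) were followed at the mRNA level in primary murine Mϕ that were naïve or efferocytic and rested or stimulated with LPS/IFNγ. The family was taken as the 10 mouse genes Gbp2, Gbp2b, Gbp3, Gbp4, Gbp5, Gbp6, Gbp7, Gbp8, Gbp9 and Gbp10, found by matching the Ensembl identifier of each row to its gene symbol, and all 10 were among the 55359 genes listed. They were listed by name and not selected by their values, although earlier results of these data were known when the family was chosen. Each of the 10 had a mean of at least 10 normalized counts over all samples and entered the test, although Gbp2b, Gbp6 and Gbp10 reached that mean only through the stimulated samples.

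The cells were BMDMs of adult wild-type C57BL/6 mice of both sexes, differentiated with M-CSF and GM-CSF, and total RNA was sequenced after rRNA depletion. There were 4 groups with 2 samples each. Ctrl Mϕ were naïve and unstimulated. LPS Mϕ were naïve and received LPS (100 ng/mL) together with IFNγ (100 U/mL) for 6 h, so that the group named LPS always also had IFNγ. Eff Mϕ had spent 16 h with apoptotic NIH-3T3 CA cells, mouse fibroblasts in which a dimerizer (10 nM) activates an engineered caspase-8, at 5 apoptotic cells per Mϕ. LPSEff Mϕ had the same co-culture, were washed and were then stimulated like the LPS group. CD45+ cells were selected before RNA isolation. Whether naïve Mϕ were also given dimerizer is not stated in the sources used here, and the labels do not say whether the 2 samples of a group came from separate animals, so that p-values measure the spread between these samples. The deposited unit is the normalized count, which is the number of reads divided by 1 size factor per sample. Reads on genes were between 3481288 and 12020918 per sample, and 3 reads were worth between 1.74 and 5.71 normalized counts, the latter in Ctrl replicate 1. All 10 markers of the macrophage list, among them Ptprc, Csf1r and Adgre1, were detected in every group, and their sum lay between 108856.3 and 164148.4 normalized counts. Lyz2 was the largest part of this sum, with between 54327.0 and 103975.2. Folds and log2 fold changes are differences of log2(normalized count + 1) between group means, and a gene is said to be called where the adjusted p from limma was under 0.05.

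GBPs are large GTPases of the dynamin superfamily that interferon induces in Mϕ. They assemble on vacuoles and on bacteria in the cytosol, help to break them open, and thereby give inflammatory caspases access to lipopolysaccharide. IFNγ acts through its receptor and JAK kinases on promoters that hold the gamma-activated site (GAS), and it induces IRF1, which binds the interferon-stimulated response element (ISRE). In mice the genes sit in a pair of clusters. Per the GENCODE vM39 annotation of GRCm39, Gbp5 (142199739 to 142228105), Gbp7 (142236044 to 142255910), Gbp3 (142265731 to 142278979), Gbp2b (142300602 to 142324940) and Gbp2 (142326349 to 142343779) lie in this order on the plus strand of chromosome 3. The other 5 lie on the minus strand of chromosome 5, where Gbp8 (105162016 to 105287452), Gbp9 (105224332 to 105287452) and Gbp4 (105263633 to 105287609) overlap one another and Gbp10 (105362773 to 105412666) and Gbp6 (105418568 to 105443751) follow.

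RefSeq promoter sequences of the build GRCm38.p6 were at hand for 5 of the 10 members, all of the chromosome 3 cluster, with a second start for Gbp3. The 250 bases before the start are shown for 3 of them, Gbp2 as the member with the highest stimulated level per kb, Gbp5 as the member with the lowest p in the comparison of efferocytic with naïve Mϕ, and Gbp7 as the member with the highest mean resting level per kb. All are on the plus strand and read 5′ to 3′, and capitals mark the searched motifs, GAAA, any 2 bases and GAAA again for the ISRE (on either strand, here all read as TTTC, any 2 bases and TTTC) and TTCNNNGAA for the GAS, which reads the same on both strands.
Gbp2, chr3:142620413-142620662: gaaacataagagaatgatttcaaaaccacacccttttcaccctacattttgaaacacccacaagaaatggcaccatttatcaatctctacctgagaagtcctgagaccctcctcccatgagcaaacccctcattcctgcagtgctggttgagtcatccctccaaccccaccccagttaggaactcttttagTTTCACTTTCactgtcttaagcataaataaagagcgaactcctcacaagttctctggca
Gbp5, chr3:142496684-142496933: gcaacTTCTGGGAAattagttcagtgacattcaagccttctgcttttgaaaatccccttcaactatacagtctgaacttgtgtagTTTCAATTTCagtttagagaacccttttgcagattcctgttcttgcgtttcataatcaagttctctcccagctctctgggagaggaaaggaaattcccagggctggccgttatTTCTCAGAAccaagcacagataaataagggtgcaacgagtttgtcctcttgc
Gbp7, chr3:142530086-142530335: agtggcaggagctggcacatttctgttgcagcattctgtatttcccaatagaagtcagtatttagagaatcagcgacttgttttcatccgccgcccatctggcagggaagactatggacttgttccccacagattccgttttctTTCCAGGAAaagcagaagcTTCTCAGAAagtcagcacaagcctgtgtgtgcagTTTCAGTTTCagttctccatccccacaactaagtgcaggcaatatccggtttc
The first base of the ISRE match lay 59 bases before the start in Gbp2, 165 in Gbp5 and 53 in Gbp7. Gbp2b held 1 match at 137 bases, and the first start of Gbp3 held 2 overlapping ones at 45 and 39 bases, whereas no match was found at its second start. GAS matches were found in Gbp5, at 245 and 52 bases, and in Gbp7, at 106 and 87 bases, and none overlapped an ISRE match. Of the 32851 RefSeq promoters of the same length, 2.98% held the ISRE letters, 7.02% the GAS letters and 0.332% both. A match describes letters in this window and does not show that a factor bound there.

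In resting naïve Mϕ, GBP transcripts were few. Summed over the 10 genes they made up 0.0126% and 0.0179% of all normalized counts in the 2 Ctrl samples, from 440 and 2150 reads. With LPS/IFNγ the sum rose to 0.333% and 0.464% in naïve and to 0.311% and 0.399% in efferocytic Mϕ, and in Eff samples it was 0.0101% and 0.0129%. The stimulated samples lay far above the unstimulated ones, and the ranges of LPS and LPSEff overlapped. Each of the 10 genes was higher without overlap in LPS than in Ctrl, as were 28.4% of all tested genes. The same held in LPSEff against Eff, where 29.5% of all tested genes were higher without overlap. Of the 10, Gbp2b, Gbp6 and Gbp10 entered the test only through the stimulated samples.

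**Figure D1:**
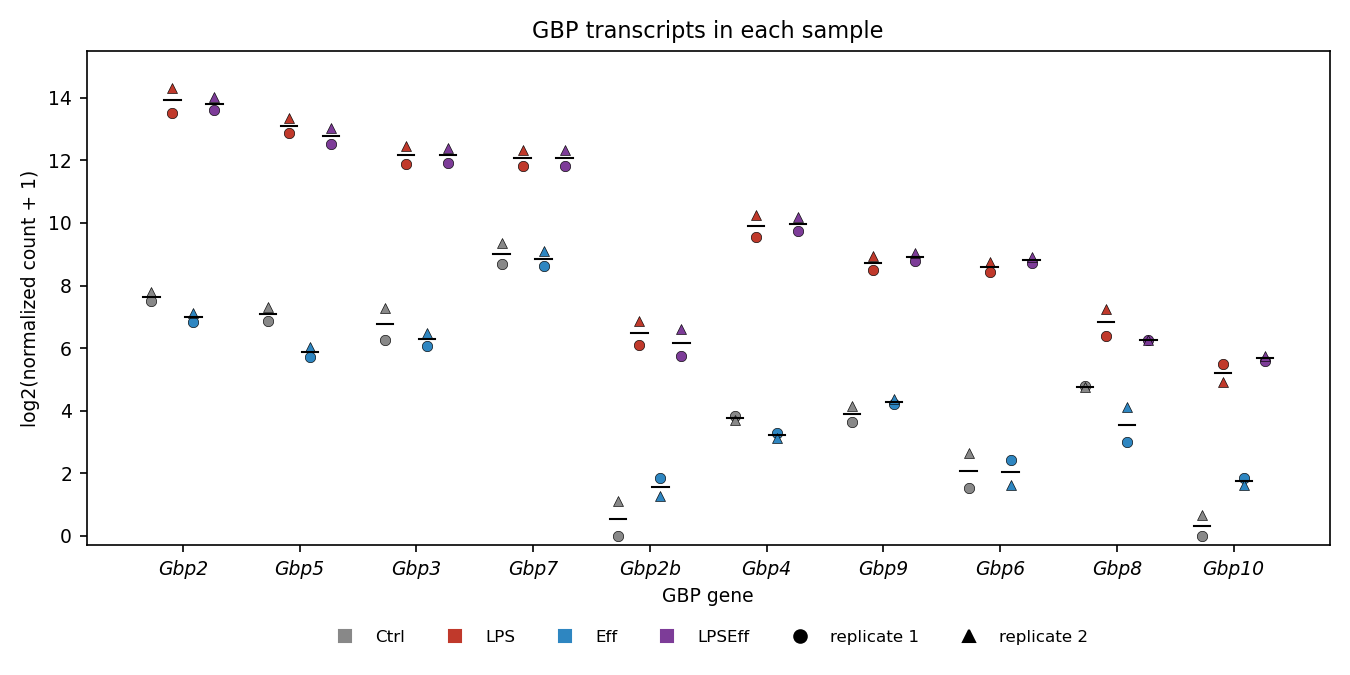
Level of each GBP gene in each of the 8 samples, as log2(normalized count + 1) on the vertical axis, with circles for replicate 1, triangles for replicate 2 and a bar at the mean of the group. Stimulated samples (red, purple) lie above unstimulated ones (grey, blue) for all 10 genes, while naïve and efferocytic samples lie close to each other. Of all tested genes, 28.4% were higher without overlap in LPS than in Ctrl and 29.5% in LPSEff than in Eff. Gbp2b, Gbp6 and Gbp10 entered the test only through the stimulated samples.

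Of the members that carry a CaaX box and are anchored to membranes by prenylation, Gbp2 had the highest level per kb in every sample. Gbp2, which coats the vacuoles of parasites and bacteria, had 179 and 221.5 normalized counts in Ctrl and 112.2 and 139.7 in Eff, against 11774.9 and 20516.2 in LPS and 12522.4 and 16478.2 in LPSEff. The groups with and without LPS/IFNγ were separated by a wide gap. In naïve Mϕ this was a 77.7-fold rise (95% interval 48.9 to 123.4, limma adjusted p = 1.39e-05), or 6.28 ± 0.29 (SE) in log2 units, and in efferocytic Mϕ a 113.8-fold rise (71.7 to 180.8, adjusted p = 8.34e-06). Gbp5, which promotes assembly of the NLRP3 inflammasome, had 116.2 and 157.9 normalized counts in Ctrl and 51.7 and 64.2 in Eff, against 7422.7 and 10424.2 in LPS and 5851.5 and 8396.5 in LPSEff. Both Eff samples were below both Ctrl samples, and the stimulated groups overlapped. Gbp5 rose 64.5-fold in naïve Mϕ (42.0 to 99.1, adjusted p = 1.29e-05) and 119.6-fold in efferocytic Mϕ (77.8 to 183.8, adjusted p = 6.13e-06). Gbp2b, the neighbour of Gbp2 and known earlier as Gbp1, was close to the detection limit without LPS/IFNγ, with 0 and 1.16 normalized counts in Ctrl and 2.63 and 1.41 in Eff, which are at most 3 reads per sample. With LPS/IFNγ it reached 67.3 and 114.8 in LPS and 52.3 and 96.5 in LPSEff. From the reads of both samples, 165 against 2, its ratio of LPS to Ctrl was 105.8, with a counting interval of 28.8 to 880.9, and from 142 against 5 reads the ratio of LPSEff to Eff was 35.4 (14.8 to 110.8). These intervals cover counting error only.

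Gbp3 and Gbp7 of the same cluster lack the CaaX box. Gbp3 had 76.2 and 153.8 normalized counts in Ctrl and 66.6 and 88.2 in Eff, against 3792.2 and 5600.5 in LPS and 3888.1 and 5343.0 in LPSEff. Stimulated and unstimulated samples were far apart, and naïve and efferocytic samples overlapped in both states. Gbp3 rose 42.2-fold (23.9 to 74.6, adjusted p = 6.18e-05) in naïve and 58.7-fold (33.2 to 103.8, adjusted p = 3.56e-05) in efferocytic Mϕ. Gbp7, known for bringing the NADPH oxidase to phagosomes, was already well expressed at rest, with 413.2 and 648.3 normalized counts in Ctrl and 389.1 and 547.6 in Eff. LPS/IFNγ brought this gene to 3583.9 and 5107.0 in LPS and to 3615.7 and 5180.5 in LPSEff. Its rise was 8.25-fold (5.03 to 13.5, adjusted p = 0.000414) in naïve and 9.36-fold (5.70 to 15.4, adjusted p = 0.000313) in efferocytic Mϕ, so that its interval did not reach that of Gbp2, Gbp3 or Gbp5 in either comparison.

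In the chromosome 5 cluster, Gbp4, Gbp9 and Gbp6 had few transcripts at rest and rose strongly. Gbp4 had 13.3 and 12.1 normalized counts in Ctrl and 8.76 and 7.76 in Eff, against 752.7 and 1212.5 in LPS and 859.8 and 1179.0 in LPSEff. Both Eff samples were slightly below both Ctrl samples, and the stimulated groups overlapped. LPS/IFNγ gave a 69.7-fold rise (43.5 to 111.6, adjusted p = 1.76e-05) in naïve and a 109-fold rise (68.1 to 174.4, adjusted p = 9.70e-06) in efferocytic Mϕ. Gbp9 had 11.4 and 16.8 normalized counts in Ctrl and 17.5 and 19.8 in Eff, against 357 and 489.5 in LPS and 444.1 and 525.4 in LPSEff, with rises of 28.2-fold (17.9 to 44.5, adjusted p = 3.94e-05) and 24.7-fold (15.7 to 38.9, adjusted p = 3.79e-05). Here both Eff samples lay above both Ctrl samples. Gbp6 went from 1.90 and 5.21 normalized counts in Ctrl to 347.9 and 425.5 in LPS, and from 4.38 and 2.12 in Eff to 420.4 and 481 in LPSEff. The resting levels rested on 10 reads over both Ctrl and 8 over both Eff samples. By reads, 688 against 10, the ratio of LPS to Ctrl was 88.2 (counting interval 47.7 to 184.8), and that of LPSEff to Eff was 141.9 (71.7 to 329.6, from 910 against 8 reads). The fitted log2 fold change in naïve Mϕ was 6.51 and ranged from 5.54 to 7.05 over the alternatives run. No p is given for it, since Gbp6 entered the test only through the stimulated samples.

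Gbp8 and Gbp10 were the least abundant members per kb of exon in stimulated Mϕ. Gbp8 had 26.7 and 26.0 normalized counts in Ctrl and 7.01 and 16.2 in Eff, against 82.8 and 152.3 in LPS and 75.2 and 74.9 in LPSEff. It had the smallest rise of the family, 4.15-fold (2.04 to 8.43, 2.05 ± 0.45 SE in log2 units, adjusted p = 0.0126) in naïve and 6.47-fold (3.18 to 13.2, adjusted p = 0.00449) in efferocytic Mϕ. The call in naïve Mϕ was lost without Ctrl replicate 1 (log2 fold change 2.07, adjusted p = 0.0617), without Ctrl replicate 2 (2.03, adjusted p = 0.0639) and without LPS replicate 2 (1.62, adjusted p = 0.0746). Gbp10 had 0 and 0.578 normalized counts in Ctrl and 2.63 and 2.12 in Eff, against 44.0 and 29.5 in LPS and 46.7 and 53.3 in LPSEff. By reads, 63 against 1, the ratio of LPS to Ctrl was 80.8 (counting interval 13.98 to 3241.1), and that of LPSEff to Eff was 21.0 (9.32 to 58.6, from 101 against 6 reads).

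Gbp6 and Gbp10 are near-identical over much of their length, and their split is uncertain. Only 38.4% of the 50-base windows of Gbp6 transcripts and 31.0% of those of Gbp10 occurred in no other annotated gene, against 84.3% to 98.2% for the other 8 members. A further annotated gene, Gm43302, spans both and shares 54.6% of the windows of Gbp6, and it was given 238 and 262 normalized counts in LPS and 308 and 328.7 in LPSEff. How reads of this stretch were assigned to the 3 genes, or whether they were counted at all, is not known here. On the same strand, Gbp4, Gbp8 and Gbp9 share 107 exon bases and Gbp7 shares 637 with the pseudogene Gm43802. The setting for strand in the read counting is not given in the sources used here beyond its default mode.

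Across the family, all 10 members were called higher in LPS than in Ctrl (limma adjusted p under 0.05), where 12.4% of the 16309 tested genes were, and all 10 were called higher in LPSEff than in Eff, where 10.7% were. Since Gbp2b, Gbp6 and Gbp10 entered the test only through the samples in which they were high, these counts come to 7 of 7 for the other members. Both comparisons had 10 of 10 members with no overlap between groups, or 7 of 7 without Gbp2b, Gbp6 and Gbp10. Of all tested genes, 28.4% and 29.5% were higher without overlap. The median log2 fold change of these 7 members was 5.40 in naïve and 5.88 in efferocytic Mϕ, while the median over all 10 was 5.66 and 5.25, or 5.11 and 5.42 with Gbp2b and Gbp10 set against 3 reads per sample, and the median of all tested genes was -0.01 and 0.01. Ranked from the highest log2 fold change in LPS against Ctrl among all 16309 genes, Gbp2 stood at 37, Gbp4 at 42, Gbp5 at 45, Gbp3 at 71 and Gbp9 at 97, with Gbp7 at 350 and Gbp8 at 844, and Gbp2b, Gbp6 and Gbp10 are left out of this order because their fitted values depend on the pseudocount. Of the same 7 members in naïve Mϕ, those of chromosome 3 lay between 3.04 and 6.28 and those of chromosome 5 between 2.05 and 6.12, so that the clusters overlapped. When samples were rescaled to equal totals, the median of all genes shifted to -0.41 and -0.44 in the 2 comparisons, and all 10 members remained positive with medians of 5.31 and 4.83.

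Of the 10 macrophage markers, 3 were called higher in LPS than in Ctrl and 4 in LPSEff than in Eff. Of all tested genes, 12.4% and 10.7% were called higher in these comparisons. Markers of other cell types also moved with LPS/IFNγ. The 6 dendritic cell markers summed to between 2039.4 and 2575.8 normalized counts in Ctrl and 1311.8 and 1619.6 in Eff, against 8291.8 and 16024.7 in LPS and 6482.6 and 6687.5 in LPSEff, most of it Ccr7, a chemokine receptor that maturing cells switch on. Ccr7 and Xcr1 were the 2 called higher of the 4 tested in LPS against Ctrl, and Cd209a was at 0 in both LPSEff samples. The 7 neutrophil markers summed to between 694 and 1465.1 in unstimulated and between 1743.5 and 2500.2 in stimulated samples, and 3 of the 5 tested were called higher in LPS against Ctrl. The 6 lymphocyte markers summed to at most 21.99 in any sample, and Ncr1 was at 0 in 7 of the 8 samples. In bulk RNA, more cells of a type and more RNA per cell cannot be told apart, and the part of these cell types in the GBP levels was not tested.

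**Figure D2:**
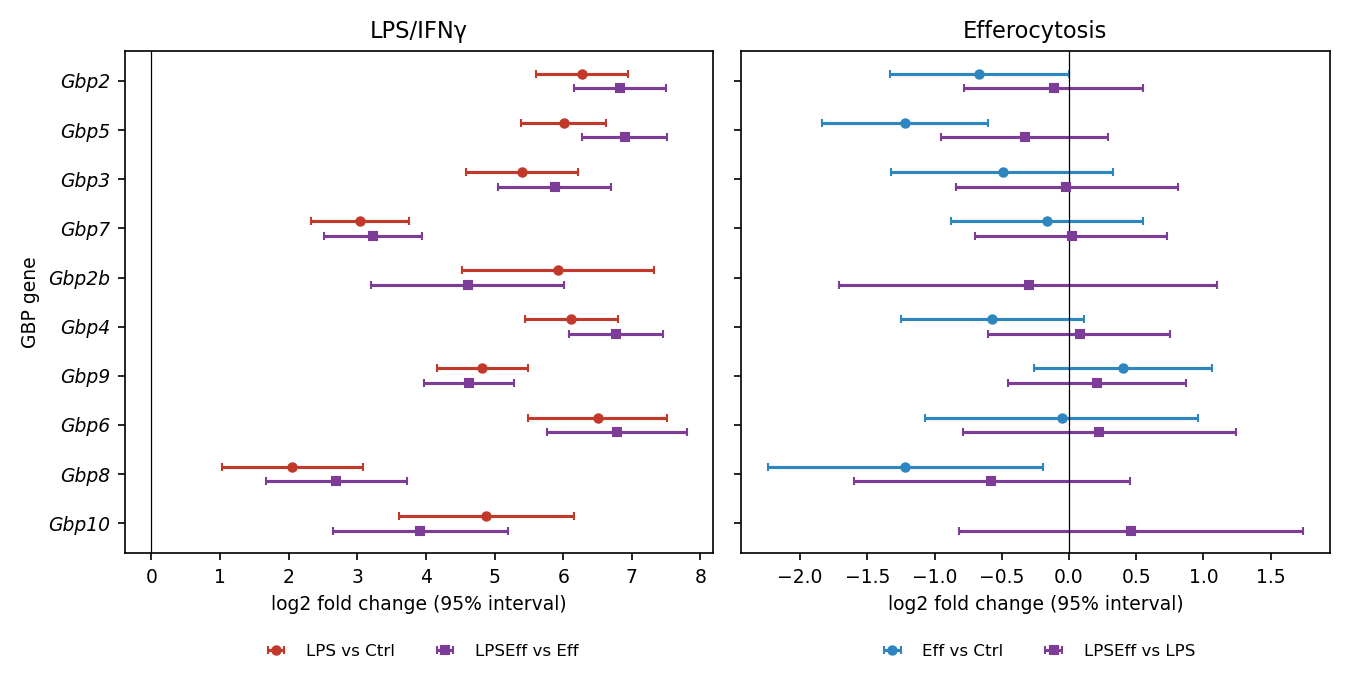
Log2 fold change of each GBP gene with its 95% interval from limma, for LPS/IFNγ in naïve (LPS vs Ctrl) and efferocytic (LPSEff vs Eff) Mϕ on the left and for efferocytosis without (Eff vs Ctrl) and with (LPSEff vs LPS) LPS/IFNγ on the right. On the left all intervals lie above 0, with Gbp8 and Gbp7 lowest, and on the right the intervals include 0 except for Gbp5 and Gbp8 in Eff vs Ctrl, neither of them called. Gbp2b and Gbp10 are left out of Eff vs Ctrl, where both groups had at most 3 reads per sample. The values of Gbp2b, Gbp6 and Gbp10 on the left depend on the pseudocount of 1. Since Gbp2b, Gbp6 and Gbp10 entered the test only through the stimulated samples, their intervals above 0 on the left are no support for a rise.

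The make-up of the family differed between stimulated and unstimulated samples, as described here without a test. Normalized counts were divided by the exon length of each gene to compare members, and each member's share of the summed level per kb was taken within a sample. In Ctrl, Gbp7 held 39.6% ± 2.3 (SD, n = 2) and Gbp2 35.7% ± 3.9, and the levels of these 2 genes overlapped between samples. Gbp3 followed with 11.8% ± 2.8, Gbp5 with 8.52% ± 0.38 and Gbp8 with 2.73% ± 0.75. In LPS, Gbp2 alone held 62.8% and 67.2%, and Gbp7 held 8.17% and 7.15%. Gbp5 (12.9% ± 1.4) and Gbp3 (11.6% ± 0.8) lay between them and overlapped in level, and each of the other 6 members held at most 1.06% in either sample. LPSEff had the same leading member, with Gbp2 at 65.6% and 64.3%, and Gbp3, Gbp5 and Gbp7 followed with 12.4%, 11.1% and 8.37% on average, where neighbours in this order overlapped in level. In Eff, Gbp7 led with 47.1% and 49.9% before Gbp2 with 31.8% and 29.8%, and their levels per kb did not overlap. Gbp5 held 5.14% and 4.81% in Eff, below its 8.78% and 8.25% in Ctrl. With the number of unique 50-base windows in place of the exon length, Gbp2 held 61.6% in LPS and Gbp6 moved up by 1 place there, before Gbp4, with 1.54%.

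**Figure D3:**
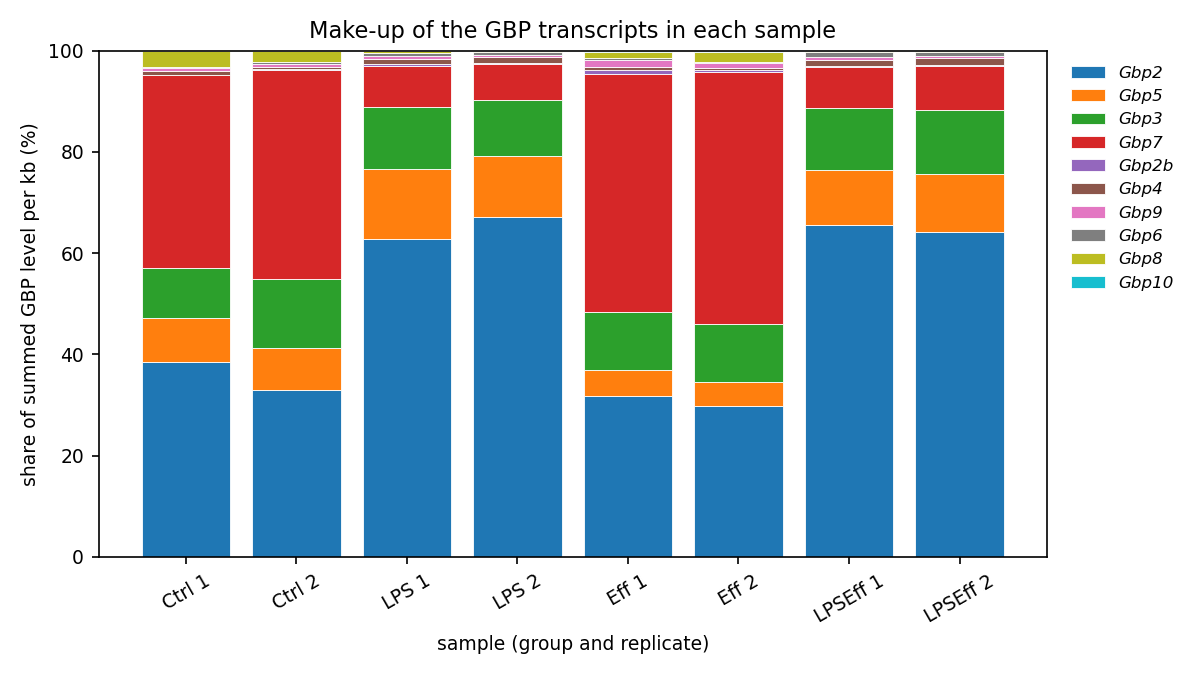
Share of each GBP gene in the summed level of the family per kb of exon, in percent, with 1 bar for each of the 8 samples. Gbp7 (red) and Gbp2 (dark blue) hold most of the level in unstimulated samples, and Gbp2 holds between 62.8% and 67.2% in stimulated ones.

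With efferocytosis alone, in Eff against Ctrl, none of the 10 members was called in the main limma fit, where 0.251% of all tested genes were called. In that fit 3 members had an unadjusted p under 0.05, where 6.13% of all tested genes had. With the replicate numbers as a block, limma called Gbp5 and Gbp2 (adjusted p = 0.000928 and 0.0480), beside 2.67% of all tested genes. These numbers were not shown to pair the samples. edgeR on the recovered reads also called 0, and DESeq2 called 1 member, Gbp5, where they called 0.0858% and 1.25% of all genes. Gbp5 was 137 ± 29.5 normalized counts (SD, n = 2) in Ctrl and 58.0 ± 8.9 in Eff, with a log2 fold change of -1.22 (95% interval -1.84 to -0.60, limma adjusted p = 0.212). By edgeR it was -1.26 (adjusted p = 0.197) and by DESeq2 -1.26 (adjusted p = 0.00587), and over all alternatives run the value ranged from -1.44 to -1.0 with adjusted p from 0.000928 to 0.708, so that some alternatives called it. Gbp8 had the same fitted value, -1.22, with a wider interval (-2.24 to -0.19, adjusted p = 0.645). Gbp10 was the third, with at most 3 reads in each Ctrl and Eff sample, too few for a fold.

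For the other members in Eff against Ctrl, the log2 fold change was -0.67 for Gbp2 (-1.33 to 0.00), -0.57 for Gbp4 (-1.25 to 0.11), -0.49 for Gbp3 (-1.32 to 0.33), -0.16 for Gbp7 (-0.88 to 0.55), -0.05 for Gbp6 (-1.07 to 0.96) and 0.40 for Gbp9 (-0.26 to 1.06). The signs for Gbp3, Gbp7 and Gbp6 turned without Ctrl replicate 2, to 0.01, 0.16 and 0.50. Of the 8 members with more than 3 reads in a Ctrl or Eff sample, both Eff samples were below both Ctrl samples for 4, Gbp2, Gbp5, Gbp4 and Gbp8, and above them for 1, Gbp9, while 17.8% of all tested genes were lower and 16.3% higher without overlap. The median over these 8 members was -0.53, and over all tested genes -0.01.

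After LPS/IFNγ, in LPSEff against LPS, no member was called (0 by limma, edgeR and DESeq2, none with an unadjusted p under 0.05 in limma), where limma and edgeR each called 0.773% and DESeq2 2.26% of all tested genes. The log2 fold changes lay between -0.58 for Gbp8 (95% interval -1.60 to 0.45) and 0.46 for Gbp10 (-0.82 to 1.74), with a median of 0.00. For the most abundant members the interval was -0.78 to 0.55 in Gbp2, -0.95 to 0.29 in Gbp5, -0.84 to 0.81 in Gbp3 and -0.70 to 0.73 in Gbp7, so that differences within these intervals were not detectable with 2 samples per group. Samples overlapped for 8 members, Gbp10 was higher in both LPSEff samples and Gbp8 lower in both, while 19.3% of all tested genes were higher and 17.0% lower without overlap. Whether the response to LPS/IFNγ differed between efferocytic and naïve Mϕ was tested as an interaction, which called 0 members and 0 of all genes by limma, edgeR and DESeq2. In limma, 1 member and 311 of the 16309 genes had an unadjusted p under 0.05. That member was Gbp5, whose log2 fold change with LPS/IFNγ was larger by 0.89 in efferocytic Mϕ (95% interval 0.01 to 1.77, adjusted p = 1.00).

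Fibroblast markers and 1 neutrophil marker moved with efferocytosis. The 14 fibroblast markers, all detected in every group, summed to 175.2 and 405.4 normalized counts in Ctrl against 2233.6 and 4397.4 in Eff, and to 809.7 and 899.7 in LPS against 6747.7 and 5812.5 in LPSEff. Of the 12 tested, 5 were called higher in Eff than in Ctrl, the collagen genes Col1a1, Col1a2, Col3a1 and Col6a3 and the growth factor receptor gene Pdgfra, and 7 in LPSEff than in LPS. Of all tested genes, 0.215% and 0.730% were called higher in these comparisons. Of the 12 fibroblast markers, 0 were called lower, although some went the other way. Pdgfrb had 245.7 and 244.7 normalized counts in LPS against 82.3 and 157.4 in LPSEff. Thy1 had a lower mean in Eff than in Ctrl (25.77 against 31.55) and in LPSEff than in LPS (43.11 against 63.58), with samples that overlapped. The NIH-3T3 line is of mouse origin, so that its GBP transcripts would be counted with those of the Mϕ, and the part of fibroblast RNA in the GBP values of Eff and LPSEff was not tested. S100a8, 1 of the 5 tested neutrophil markers, had 308.5 and 269.5 normalized counts in Ctrl and 665.1 and 698.7 in Eff, and was the one called (log2 fold change 1.24, limma adjusted p = 0.0402). Of the 4 tested dendritic cell markers, 0 were called in Eff against Ctrl or in LPSEff against LPS, although Ccr7 was lower in both Eff samples than in both Ctrl samples and lower in both LPSEff samples than in both LPS samples (log2 fold changes -0.70 and -0.81, limma adjusted p = 0.768 and 0.360). The part of these cells in the GBP values was not tested.

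The route from IFNγ to the GBPs was described by lists of its genes. Of 18 tested genes of interferon signalling and its transcription factors, 14 rose with LPS/IFNγ in naïve and 14 in efferocytic Mϕ, and 0 fell, beside 12.4% and 10.7% of all tested genes that rose and 11.6% and 8.95% that fell. Irf1, the ISRE-binding factor that IFNγ induces, had 302.8 and 316.9 normalized counts in Ctrl and 178.8 and 182.8 in Eff, against 3043.3 and 4923.2 in LPS and 3000.6 and 3533.2 in LPSEff. Both of its Eff samples were below both Ctrl samples, by a log2 difference of -0.77 (SE 0.24, limma adjusted p = 0.470), and it rose 12.5-fold in naïve and 17.9-fold in efferocytic Mϕ. Irf8, a factor of myeloid development, rose 4.12-fold and 3.35-fold, and Irf7 and Batf2, a pair of interferon-induced factors, had log2 fold changes of 5.25 and 4.21 in naïve Mϕ. The receptor gene Ifngr1 went the other way without a call, with a log2 fold change of -0.86 (adjusted p = 0.0681) in naïve Mϕ.

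Of 9 genes that restrain interferon signalling, 6 rose in naïve and 6 in efferocytic Mϕ, beside 12.4% and 10.7% of all tested genes. In naïve Mϕ the largest values were those of Usp18, which blocks the type I interferon receptor, with a log2 fold change of 4.19, Socs1 and Socs3, inhibitors of JAK kinases, with 2.93 and 2.08, and the phosphatase gene Ptpn2 with 1.18. The immunity-related GTPases, which mark and attack the same vacuoles as GBPs, had the highest median of the 6 lists. Of the 10 tested genes, 9 rose in each comparison, with a median log2 fold change of 4.65 in naïve and 4.95 in efferocytic Mϕ. Iigp1, Tgtp1, Tgtp2 and F830016B08Rik entered the test only through the stimulated samples, and of the other 6 genes 5 rose in each comparison, with medians of 4.25 and 4.87. Ifi47 had a log2 fold change of 5.27 in naïve Mϕ. By reads, the ratio of LPS to Ctrl was 206.9 for Iigp1 (2581 against 16 reads, counting interval 127.1 to 362.5), 76.3 for Tgtp2 (238 against 4 reads, 29.4 to 282.3) and 107.7 for Tgtp1 (168 against 2 reads, 29.4 to 896.8), and these intervals overlapped.

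Partners of GBPs at the vacuole and in cell death made up further lists. Of 15 tested genes for ATG8 proteins, their conjugation and adaptors at vacuoles, 2 rose and 2 fell in naïve Mϕ, each 13.3% of the list and close to the 12.4% and 11.6% of all tested genes. Rnf213, an interferon-induced ubiquitin ligase, and Sqstm1, an autophagy receptor, had log2 fold changes of 3.99 and 2.12, while Atg7, which activates ATG8 proteins, fell by 1.25 on the log2 scale and Lgals3, a sensor of broken vacuoles, by 0.95. In efferocytic Mϕ, 4 of the 15 rose and 1 fell, or 26.7% and 6.67%, beside 10.7% and 8.95% of all tested genes. Of 12 inflammasome and pyroptosis genes, 8 rose and 1 fell in naïve and 10 rose and 1 fell in efferocytic Mϕ. Il1b (8.73), Zbp1 (4.28), Mefv (4.25) and Casp4, the mouse caspase that binds lipopolysaccharide (3.08), had the largest log2 fold changes in naïve Mϕ, and Pycard, the inflammasome adaptor, fell by 1.32. The value of Mefv rested on 11 reads over both Ctrl samples, and Mefv entered the test only through the stimulated samples. Of the other 11 genes, 7 rose and 1 fell in naïve and 9 rose and 1 fell in efferocytic Mϕ. None of the 6 genes for enzymes that process CaaX boxes, the prenyltransferase subunits Fnta, Fntb and Pggt1b and the genes Rce1, Zmpste24 and Icmt, whose products act after prenylation, was called in either comparison by limma, with 0 and 0 at an unadjusted p under 0.05. In Eff against Ctrl, in LPSEff against LPS and in the interaction, limma called 0 of the 70 tested genes of these 6 lists, with 9, 5 and 3 at an unadjusted p under 0.05, where 6.13%, 10.3% and 1.91% of all tested genes had such a p.

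**Figure D4:**
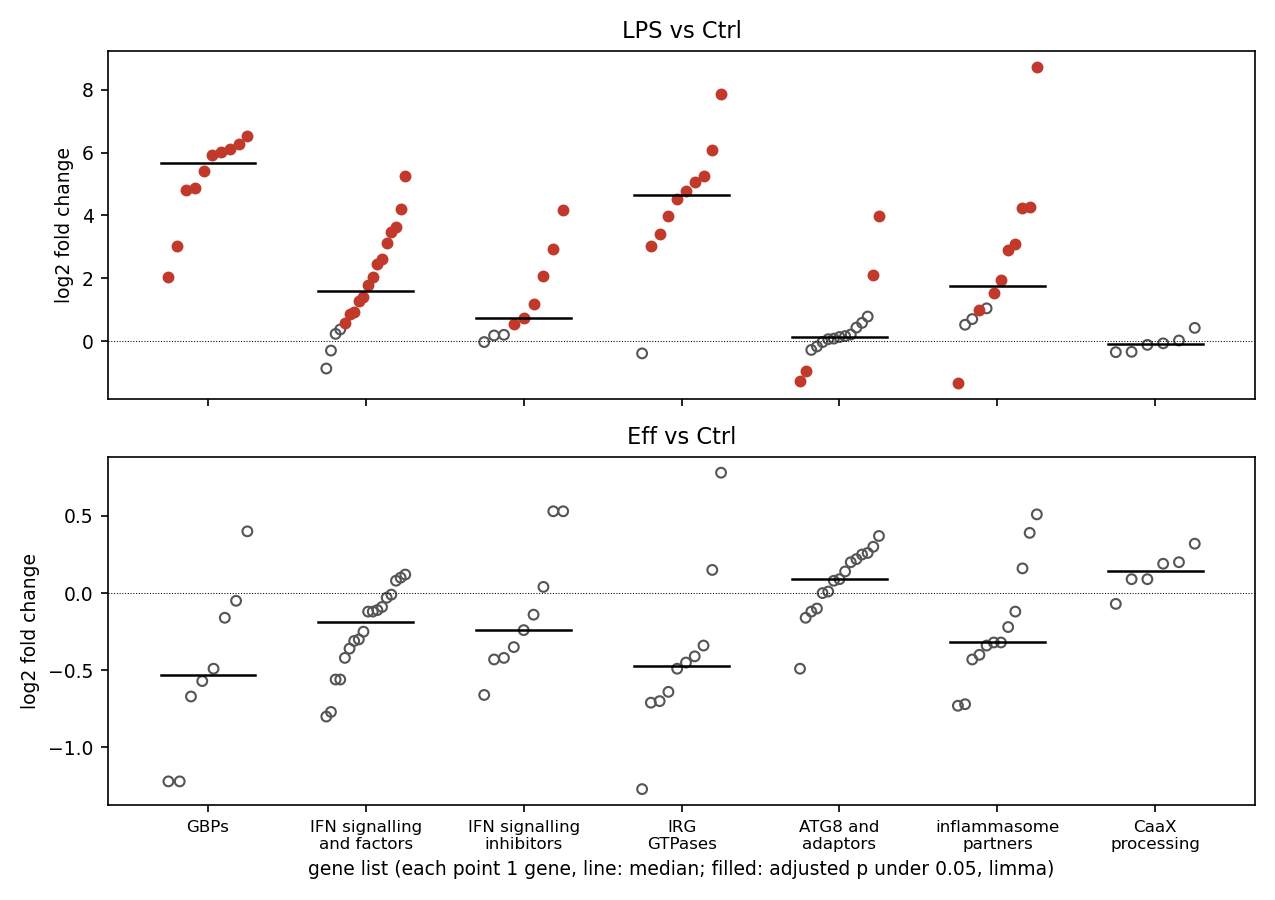
Log2 fold change of each tested gene (1 point each) of the GBP family and of the 6 lists, for LPS vs Ctrl above and Eff vs Ctrl below, with a line at the median of each list and filled points for genes called by limma. The GBPs and the immunity-related GTPases have the highest medians above, 5.66 and 4.65, and no point is filled below. Without the genes that entered the test only through the stimulated samples, these 2 medians are 5.40 and 4.25. The GBP column below leaves out Gbp2b and Gbp10, and above the values of genes with few resting reads depend on the pseudocount of 1.

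Likeness between genes was described over the 8 samples. The Pearson correlation of log2(normalized count + 1) with the mean of the centred members ranged from 0.909 for Gbp8 and 0.961 for Gbp10 to 0.998 for Gbp3. Each member is itself part of this mean, so that high values of members are built in and are no support for likeness. The mean also holds Gbp2b, Gbp6 and Gbp10, which entered the test only through the stimulated samples. Outside the family, the highest values among the genes tested were those of Clic4 (0.9989), a chloride channel family gene, Cflar (0.9985), an inhibitor of caspase-8, Ptprj (0.998), a receptor phosphatase gene, Tmem67 (0.9977) and Gabpb1 (0.9976). The 8 points fall into stimulated and unstimulated samples, which lie far apart, so that no p is given. The log2 fold change in LPS against Ctrl was 2.72 for Clic4, 2.76 for Cflar, 1.66 for Ptprj and 3.23 for Tmem67, all called, and 0.58 for Gabpb1, which was not (adjusted p = 0.0650).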

How the data were processed

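Total RNA of 8 BMDM samples (4 groups, n = 2) was depleted of rRNA and sequenced. The authors trimmed adapters (cutadapt), discarded rRNA reads (bowtie2), aligned the remainder to mm39 (STAR) and counted reads per gene (htseq-count). What they deposited is a normalized signal, in which the reads of a sample are divided by its size factor. Annotation release and tool versions are not given in the sources used here. In all samples 100% of values were whole multiples of the worth of 1 read (tolerance 0.01), and count tests used these recovered reads.

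GENCODE vM39 named 54749 of 55359 identifiers. The main test was limma-trend (limma 3.58.1 in R 4.3.3) of log2(normalized count + 1) over 16309 genes whose mean reached 10, fitted to 4 group means with 4 residual degrees of freedom and adjusted by Benjamini-Hochberg. This log scale makes changes of low genes look smaller. With 2 samples against 2, the smallest p of an exact permutation test is 0.333. Intervals are 95%. Alternatives were pseudocounts of 0.5 and 5, no filter beyond a mean above 0, a filter at 50, fits to the compared groups only, a replicate block, quantile normalization, equal totals, edgeR (4.0.16) with TMM, DESeq2 (1.42.0) and leaving out each replicate. edgeR with the block was added after values were seen. Scripts were tested on simulated data.

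The members, gene lists and tests were chosen with earlier results of these data known. Genes named are all members, other genes with a Gbp symbol, up to 4 called genes per list with the largest change in LPS vs Ctrl and any called in the other comparisons, 4 upstream genes (of which Ifngr1, Irf1 and Irf8 are reported here), the 5 genes most correlated with the members, and cell type markers. Gm43302, Gm43802, Pycard, F830016B08Rik, the CaaX genes and the markers given singly were named after their values were seen.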

Additional observations from a re-analysis of the deposited data

How the results depend on the processing

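The rise of the members with LPS/IFNγ kept its direction under every alternative run, in naïve and in efferocytic Mϕ. With a mean of at least 50 required, 8 members were tested and 8 called, since Gbp2b and Gbp10 were not tested. Leaving out each replicate in turn gave 9 to 10 members called in naïve and 10 in efferocytic Mϕ. For Gbp2b the log2 fold change in LPS vs Ctrl ranged from 4.07 to 6.77 and for Gbp10 from 2.96 to 6.30 over all alternatives.

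Replicate numbers were not shown to pair the samples, although same-numbered samples deviated together (r from 0.404 to 0.595 across genes for the 6 pairs of groups). With the replicate block, 2 members were called in Eff vs Ctrl, Gbp5 (log2 fold change -1.22, adjusted p = 0.000928) and Gbp2 (-0.67, adjusted p = 0.0480), where 2.67% of all genes were called. DESeq2 called 1 member and edgeR with the block 1, each Gbp5 (-1.26 and -1.25). Of the lists, the block called 1 of 6 CaaX genes in LPS vs Ctrl, where it called 41.2% of all genes, 9 of 15 ATG8 and adaptor genes in LPSEff vs Eff (37.0% of all genes), 2 of 18 interferon signalling genes in Eff vs Ctrl, and 1 inhibitor, 2 ATG8 and adaptor genes and 1 inflammasome gene in LPSEff vs LPS (6.97% of all genes). In both comparisons with LPS/IFNγ it called 15 interferon signalling genes higher and 1 lower, and 11 inflammasome genes higher and 1 lower. Of all 16309 tested genes, it called 3337 higher and 3380 lower in LPS vs Ctrl, and 3101 higher and 2932 lower in LPSEff vs Eff. It called 2 of 4 dendritic cell markers lower in LPSEff vs LPS, where it called 2.65% of all genes lower. It changed no other call of a member.

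Signs turned only for differences that were not called. Gbp7 in LPSEff vs LPS was -0.01 with quantile normalization and -0.02 with equal totals. On leaving out each replicate in turn, Eff vs Ctrl ranged from -1.0 to 0.01 for Gbp3, -0.49 to 0.16 for Gbp7 and -0.60 to 0.50 for Gbp6, and LPSEff vs LPS from -0.24 to 0.28 for Gbp7, -0.27 to 0.42 for Gbp4, -0.02 to 0.44 for Gbp9, -0.74 to 0.13 for Gbp2b, -0.51 to 0.29 for Gbp2 and -0.30 to 0.27 for Gbp3. The interaction ranged from -0.45 to 0.07 for Gbp9, -0.03 to 0.98 for Gbp3, -0.14 to 0.51 for Gbp7 and -0.27 to 0.82 for Gbp6. The cause was not tested. Depth limits Gbp2b, Gbp10 and Gbp6 at rest, where samples held few or no reads.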

Other observations

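Further genes with a Gbp symbol moved like the members. Gbp11, next to Gbp6 on chromosome 5, had 1.90 and 1.16 normalized counts in Ctrl and 0 and 2.82 in Eff, against 55.6 and 43.7 in LPS and 39.6 and 49.5 in LPSEff. Its log2 fold change was 4.33 in LPS vs Ctrl and 4.53 in LPSEff vs Eff. Gbp2-ps, an unprocessed pseudogene downstream of Gbp2 on chromosome 3 whose 50-base windows occurred in no other gene, had 0 and 0.578 normalized counts in Ctrl and 0.876 and 0 in Eff, against 32.3 and 28.4 in LPS and 23.0 and 30.5 in LPSEff. The log2 fold change of Gbp2-ps was 4.64 in naïve and 4.33 in efferocytic Mϕ. At rest both were at a few reads or none, so that these fitted values depend on the pseudocount.

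In LPS, replicate 2 was higher than replicate 1 for 9 of 10 members, and in LPSEff also for 9, by a median of 0.54 and 0.43 on the log2 scale, where the median over all tested genes was 0.13 and 0.08. Gbp10 was the exception in LPS and Gbp8 in LPSEff.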
